A study of Rattus norvegicus with 56 samples.

Results

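The genes described here are C1qa, C1qb, C1qc, C1r, C1s, C2, Cfb, Serping1 and Cd59, measured in the brains of young and aged rats. They encode parts and regulators of complement, mainly of its classical pathway, while Cfb belongs to the alternative pathway. Members were chosen by name. A probe was included when the accession given in the scanner files matched one of these symbols in RefSeq, which gave 10 probes for 9 genes, out of 45598 probes and 16581 named genes on the array. C1s had 2 probes, A_44_P332422, which stands for the gene in counts, and A_44_P1085844. Cd59 was matched under its current rat symbol, Cd59b.

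Male Long-Evans rats received intermittent theta burst stimulation (iTBS), which delivers magnetic pulses through the skull in repeated short bursts, or a sham procedure with the coil held away from the head, and both treatments were given under sedation. The young (Y) animals were aged 6 to 7 months and the old ones 26 to 27 months, and tissue was collected 48 h after stimulation. Per the labels, water maze performance split the old animals by memory into unimpaired (AU) and impaired (AI) classes, although the study's methods describe the maze for its slice experiment and name fewer old rats than the 16 labeled here. Among young animals 4 were sham (Y_Sham) and 4 stimulated (Y_iTBS), among AU animals 4 were sham (AU_Sham) and 5 stimulated (AU_iTBS), and among AI animals 4 were sham (AI_Sham) and 3 stimulated (AI_iTBS). The hippocampus and the parietal cortex of each of these 24 animals were hybridized to separate one-color arrays. All 10 probes were well above background in all 24 animals in both regions, and none of their spots was saturated. Levels are normalized log2 signals, in which 0 is the mean of an array, so that levels of different probes are not compared with each other. A probe was called when its adjusted p from limma was under 0.05.

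Of the 56 arrays, 7 were technical repeats and 1 had labels naming conflicting groups and entered no comparison. The cortex repeat of AI_iTBS 2 correlated less with the first array of its own animal (r = 0.0845 over 500 probes) than with AI_Sham 2 (r = 0.671), so it was left out. For 11 of the 24 animals, the best correlated hippocampus array for the cortex array was the animal's own. Both regions of 15 animals were scanned in the first batch and those of 9 in later batches, with animals of every group in each. Of marker genes for hippocampus, 5 of 6 measured were called higher in hippocampus than in cortex among sham animals, and 6 of 7 cortical markers were called lower. Of all probes 35.9% were called in this comparison, in either direction. The probes well above background made up 59.3% to 69.7% of each array, and the number of animals limits the precision of all differences.

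Complement is a cascade of proteins that tags and removes microbes, debris and cells. In the classical pathway, C1q binds a target and activates the proteases C1r and C1s, which cleave C4 and C2 to form the enzyme that cleaves C3. Factor B, encoded by Cfb, takes the place of C2 in the alternative pathway. C1 inhibitor, encoded by Serping1, blocks C1r and C1s, and CD59 prevents assembly of the membrane attack complex at the end of the cascade. In the brain C1q is made mainly by microglia, and complement proteins take part in the removal of synapses.

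C1qa, C1qb and C1qc lie next to each other on rat chromosome 5, and C1r and C1s on chromosome 4. RefSeq promoter sequences were matched for 3 of the 9 members, C1qa, C1qb and C1r, and are shown because the C1q genes and the C1r and C1s genes moved together over animals, as described below. Each runs from 250 bases before to 50 bases after the start of the gene in the assembly GRCr8, and is written 5′ to 3′ on the strand of the gene. Capitals mark matches, on either strand, to the core of the site of the myeloid factor PU.1 (GAGGAA) and to the STAT site (TTCNNNGAA).
C1qa, chr5:154419884-154420183, minus strand: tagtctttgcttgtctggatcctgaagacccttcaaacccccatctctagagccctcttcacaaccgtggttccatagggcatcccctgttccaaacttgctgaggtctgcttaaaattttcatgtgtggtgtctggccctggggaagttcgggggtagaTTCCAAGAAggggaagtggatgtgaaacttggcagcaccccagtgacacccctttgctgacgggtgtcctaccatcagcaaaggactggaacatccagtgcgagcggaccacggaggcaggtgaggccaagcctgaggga
C1qb, chr5:154407778-154408077, minus strand: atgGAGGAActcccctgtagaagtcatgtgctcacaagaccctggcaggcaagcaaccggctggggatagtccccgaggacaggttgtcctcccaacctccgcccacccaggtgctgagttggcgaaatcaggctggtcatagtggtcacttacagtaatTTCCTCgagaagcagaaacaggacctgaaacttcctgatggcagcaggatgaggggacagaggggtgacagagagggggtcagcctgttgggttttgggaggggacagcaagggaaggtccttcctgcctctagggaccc
C1r, chr4:159098763-159099062, plus strand: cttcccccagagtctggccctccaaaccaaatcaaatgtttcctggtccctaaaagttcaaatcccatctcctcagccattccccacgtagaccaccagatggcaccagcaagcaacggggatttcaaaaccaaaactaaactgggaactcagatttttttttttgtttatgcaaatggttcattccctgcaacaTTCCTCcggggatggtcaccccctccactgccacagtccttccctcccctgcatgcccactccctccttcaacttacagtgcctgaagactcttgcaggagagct
The C1qa promoter held 1 STAT match starting at -90 from the gene start. The C1qb promoter held 2 PU.1 matches, starting at -247 and -90, and the C1r promoter held 1, starting at -55. Of 33469 promoters of 300 bases, 27.6% held the PU.1 letters and 8.87% the STAT letters on either strand. A C/EBP site (TTGCNNAA), present in 10.6% of promoters, was matched once, in C1r at -83, and the TATA box (TATAAA), present in 14.2%, in none of the 3. These matches describe the letters only.

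Age was compared as the mean of the 4 aged groups minus the mean of both young groups. In the hippocampus all 9 genes were higher in aged animals, except that C1qc was lower (-0.05) within the later scan batches and (-0.01) without AI_iTBS 3, and 8 of 9 had an unadjusted limma p under 0.05, against 13.3% of all probes tested. Serping1 was the only one called, while 0.511% of all 32503 probes were called (166 probes, 137 of them higher). The median difference of the 9 genes was 0.32 on the log2 scale, against -0.01 over all probes. In the parietal cortex all 9 genes were again higher, except that C1qb was lower (-0.09) within the later scan batches, 5 of 9 had an unadjusted p under 0.05 against 14.3% of probes, and none was called, against 0.402% of 32613 probes. The median difference in cortex was 0.30, against -0.01 over all probes.

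**Figure D1:**
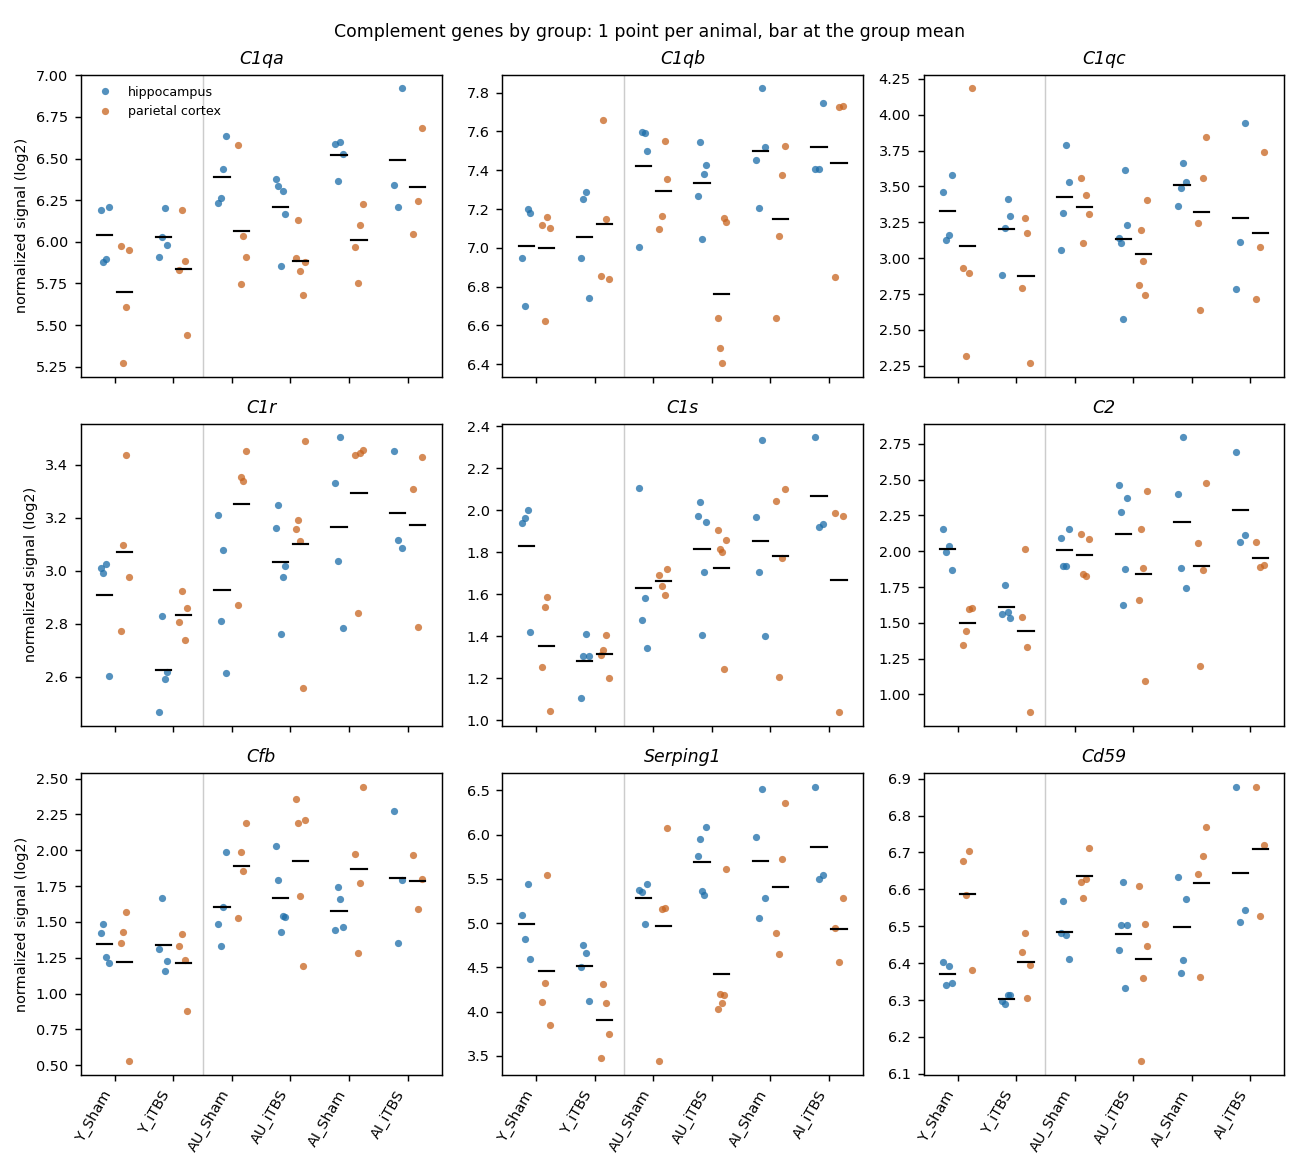
Normalized log2 signal of each gene (vertical axis) in the 6 groups (horizontal axis), with 1 point per animal, hippocampus in blue and parietal cortex in orange, and a bar at each group mean. Hippocampal Serping1 sat between 4.12 and 5.44 in young animals and between 4.99 and 6.54 in aged animals.

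Among the recognition subunits, C1qa in hippocampus ran from 5.88 to 6.21 (median 6.00) in the 8 young animals and from 5.85 to 6.92 (median 6.35) in the 16 aged animals. The difference was 0.37 ± 0.09 (SE) with an adjusted p of 0.0802, and 14 of 16 aged animals lay above every young animal. C1qb ran from 6.70 to 7.29 in young and from 7.00 to 7.82 in aged hippocampus, with a difference of 0.41 ± 0.10 (SE), an adjusted p of 0.0867 and 12 of 16 aged animals above every young one. Neither difference passed the threshold over all probes. C1qc, the third chain of the same protein, differed by only 0.07 ± 0.14 (SE, adjusted p = 0.847), with aged animals from 2.58 to 3.94 spanning the young range of 2.88 to 3.58. In cortex the differences were 0.30 ± 0.12 for C1qa, 0.10 ± 0.15 for C1qb and 0.24 ± 0.20 for C1qc (SE), with adjusted p-values of 0.296, 0.773 and 0.577, and the young and aged ranges overlapped for all 3.

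C1r and C1s encode the proteases that C1q activates. C1r in hippocampus ran from 2.47 to 3.03 (median 2.72) in young and from 2.61 to 3.50 (median 3.08) in aged animals, a difference of 0.32 ± 0.10 (SE, adjusted p = 0.204), and 10 of 16 aged animals exceeded every young one. C1s differed by 0.28 ± 0.12 with A_44_P332422 and by 0.42 ± 0.14 with A_44_P1085844 (SE), with adjusted p-values of 0.335 and 0.242. Copies of the A_44_P1085844 spot on the hippocampal array of Y_Sham 1 differed 2.85-fold (373 and 1061 processed signal), while the median ratio of its copies over 56 arrays was 1.05. In cortex C1s ran from 1.04 to 1.59 in young and from 1.04 to 2.10 in aged animals, and 13 of 16 aged animals lay above every young one, with a difference of 0.37 ± 0.13 (SE, adjusted p = 0.241). C1r in cortex differed by 0.25 ± 0.12 (SE, adjusted p = 0.356).

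C2 and Cfb encode the protease parts of the classical and the alternative enzyme that cleaves C3. C2 in hippocampus ran from 1.53 to 2.16 in young and from 1.63 to 2.79 in aged animals, a difference of 0.35 ± 0.13 (SE, adjusted p = 0.269), and in cortex the difference was 0.45 ± 0.16 (SE, adjusted p = 0.258). Cfb had the lowest adjusted p of the 9 genes in cortex. It ran from 0.53 to 1.57 (median 1.34) in young and from 1.19 to 2.44 (median 1.91) in aged cortex, so that 13 of 16 aged animals exceeded every young one. The difference was 0.65 ± 0.17 (SE, adjusted p = 0.102) in cortex and 0.32 ± 0.11 (SE, adjusted p = 0.242) in hippocampus. The difference between the regions in the age effect on Cfb was -0.33 ± 0.17 (SE, adjusted p = 0.327). C1qb had the lowest adjusted p of the members for this comparison (0.303 in limma). Its value went the other way, at 0.31, with the larger age difference in hippocampus. Among all probes 0.0237% were called for such a difference between regions, and no member was.

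Of the regulators, Serping1 in hippocampus measured 5.09, 4.82, 5.44 and 4.59 in Y_Sham and 4.51, 4.75, 4.66 and 4.12 in Y_iTBS. The aged groups measured 5.38, 5.35, 4.99 and 5.44 in AU_Sham, 5.76, 5.95, 5.36, 5.32 and 6.09 in AU_iTBS, 5.97, 5.05, 6.52 and 5.28 in AI_Sham, and 6.54, 5.49 and 5.55 in AI_iTBS. All 16 aged animals lay above the young median of 4.71, 8 of 16 lay above every young animal, and 6 of 8 young animals lay below every aged one. The difference was 0.89 ± 0.18 (SE, 95% interval 0.52 to 1.26), or 1.85-fold, with an adjusted p of 0.0238 in limma. It was 0.76 within the first scan batch (5 young and 10 aged animals) and 1.16 within the later batches (3 and 6), with adjusted p-values of 0.659 and 0.216. The call was lost without Y_Sham 2 (adjusted p = 0.0683), Y_Sham 4 (0.0725) or Y_iTBS 4 (0.0800). Serping1 in cortex ran from 3.47 to 5.54 in young and from 3.44 to 6.36 in aged animals, with a difference of 0.75 ± 0.30 (SE, adjusted p = 0.287). Cd59 differed by 0.19 ± 0.05 in hippocampus and 0.10 ± 0.08 in cortex (SE), with adjusted p-values of 0.154 and 0.538, and 14 of 16 aged animals exceeded every young one in hippocampus.

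**Figure D2:**
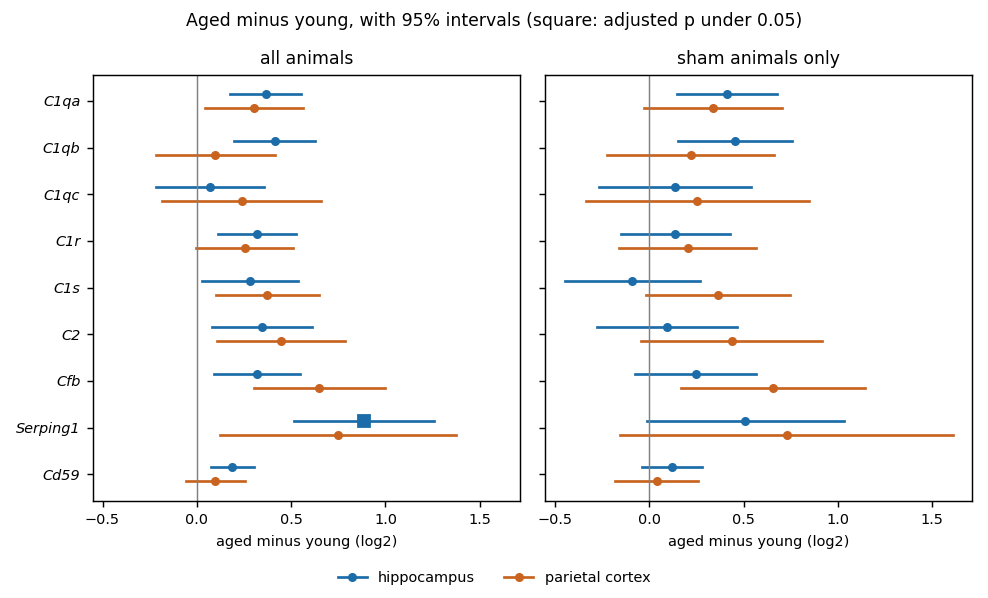
Aged minus young difference on the log2 scale (horizontal axis) for each gene (vertical axis), with 95% intervals from limma, over all animals (left) and in sham animals alone (right), with a square where the adjusted p was under 0.05. Over all animals every point lies above 0 in both regions, and the single square is hippocampal Serping1 at 0.89.

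Because tissue was measured in bulk, a change in the number of cells of a type and a change in RNA per cell cannot be told apart. Of 13 microglial markers, 10 were higher in aged hippocampus and 4 were called, against 0.511% of all probes, with a median difference of 0.17. The mean level of the list ran from 4.89 to 5.12 in young and from 4.91 to 5.60 in aged animals. All 8 choroid plexus markers were higher in aged hippocampus and none was called, with a median difference of 0.36 and list means from -1.20 to 1.40 in young and from -0.80 to 3.19 in aged animals. The 10 markers of mural cells, fibroblasts and meninges were all lower, with a median of -0.26, and none was called. With the mean of a list as a covariate, chosen after the data were seen, the age difference of Serping1 was 0.49 (adjusted p = 0.602) for microglia, 0.78 (adjusted p = 0.0225) for choroid plexus and 1.17 (adjusted p = 0.00082) for the mural list. Over the 24 hippocampi Serping1 correlated with the microglial list at r = 0.73 and with the choroid plexus list at r = 0.60. The part of these cell types in the difference was not tested further. In cortex 7 of 13 microglial markers were higher, with a median of 0.01.

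Sham animals alone were compared to leave out stimulation. In hippocampus 8 of 9 genes were higher in aged sham animals and none was called, against 0.00308% of all probes (1 probe). The exception was C1s (A_44_P332422) at -0.09. The median difference of the 9 genes was 0.14, against 0.32 over all animals. An unadjusted limma p under 0.05 was found for 2 of 9 genes, against 8.18% of all probes. C1qa differed by 0.41 ± 0.13, C1qb by 0.45 ± 0.14 and Serping1 by 0.51 ± 0.25 (SE), with adjusted p-values of 0.524, 0.572 and 0.608. In cortex all 9 were higher and none was called, against 0.104% of probes. There 1 of 9 had an unadjusted limma p under 0.05, against 9.46% of probes. This was Cfb, which differed by 0.66 ± 0.23 (SE, adjusted p = 0.427). Between AI_Sham and AU_Sham no member was called in either region, and 0% of all probes were. The largest such difference was that of Serping1, 0.42 ± 0.29 in hippocampus and 0.44 ± 0.49 in cortex (SE). The cortical value was -0.06 without AU_Sham 1, 0.11 within the first scan batch and 1.45 within the later batches.

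Stimulation was compared with sham within each age class. No member was called in young, AU, AI or all aged animals in either region, where 0% of probes were called except for AI cortex, with 0.00613% (2 probes). In young hippocampus 8 of 9 genes were lower after iTBS, with a median of -0.13 against -0.02 over all probes, and 1 of 9 had an unadjusted limma p under 0.05 against 4.51% of probes. The groups did not overlap for 3 of the 10 probes, all lower after iTBS, against 3.13% of all probes. In the other comparisons no member probe separated the groups, where 0.474% (AU) and 2.36% (AI) of probes did so in hippocampus and 1.56% (Y), 1.64% (AU) and 4.13% (AI) in cortex.

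**Figure D3:**
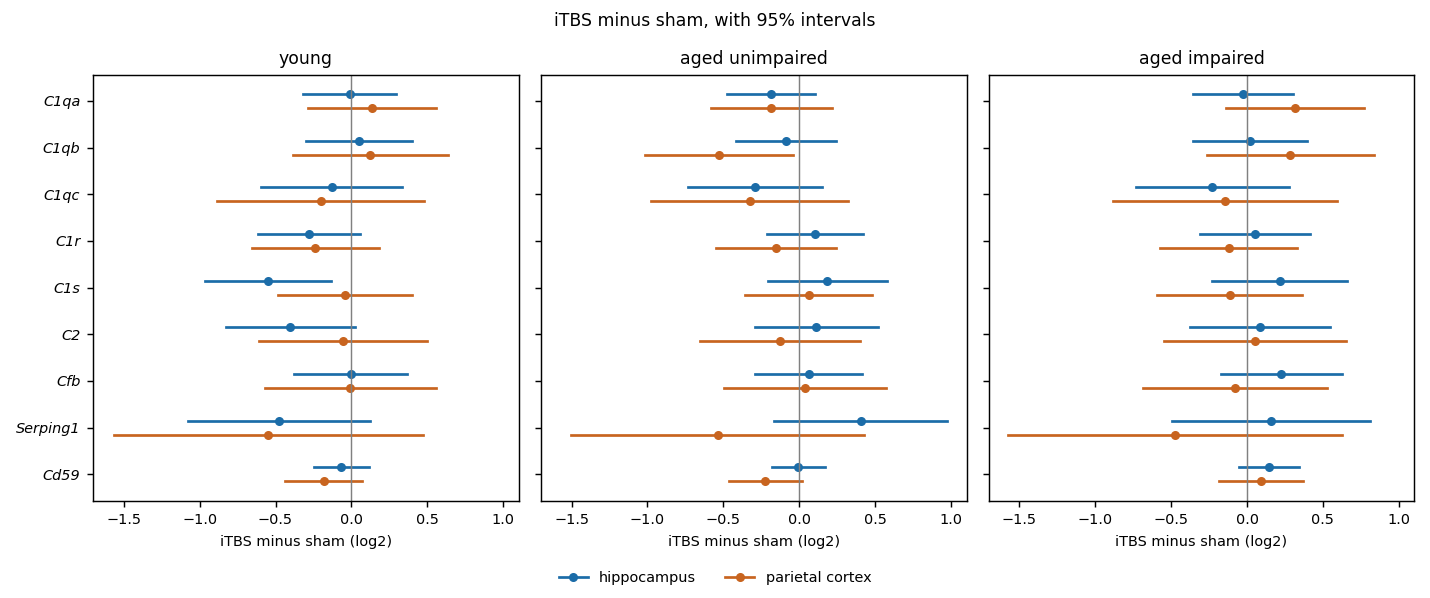
iTBS minus sham difference on the log2 scale (horizontal axis) for each gene (vertical axis) in young, aged-unimpaired and aged-impaired animals, with 95% intervals from limma, hippocampus in blue and parietal cortex in orange. The intervals cover 0 except for C1s in young hippocampus and C1qb in AU cortex, and no difference had an adjusted p under 0.05.

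C1s (A_44_P332422) in young hippocampus measured 1.94, 1.96, 2.00 and 1.42 in Y_Sham and 1.11, 1.31, 1.41 and 1.31 in Y_iTBS. The groups did not overlap, although Y_Sham 4 lay just above the highest stimulated animal. The difference had a 95% interval of -0.96 to -0.14 and an adjusted p of 0.931 in limma. The second C1s probe measured 1.29, 1.97, 1.97 and 1.26 in Y_Sham and 1.16, 1.26, 1.40 and 1.25 in Y_iTBS. These groups overlapped, and the difference was -0.35 ± 0.23 (SE). C2 measured 2.16, 1.99, 2.03 and 1.87 in Y_Sham and 1.56, 1.77, 1.58 and 1.53 in Y_iTBS, without overlap, and its 95% interval was -0.83 to 0.02. Cd59 also separated, with 6.34 to 6.40 in Y_Sham and 6.29 to 6.31 in Y_iTBS, by a difference of -0.07 ± 0.09 (SE). Marker lists also differed between these groups. All 8 choroid plexus markers were lower in Y_iTBS hippocampus and none was called, with a median of -1.01 and list means from -0.01 to 1.40 in Y_Sham and from -1.20 to -0.03 in Y_iTBS, without overlap. Of 7 lymphocyte markers 4 were measured, 3 of them lower and none called, and the list means ran from -0.67 to -0.46 in Y_Sham and from -1.18 to -0.71 in Y_iTBS. Over the 24 hippocampi C2 and C1s correlated with the choroid plexus list at r = 0.71 and 0.61, and with the lymphocyte list at 0.58 each. All 7 cortical markers were higher in Y_iTBS hippocampus (median 0.42) and 5 of 6 hippocampal markers were lower (median -0.18), with none called, while 8 of 13 microglial markers were higher (median 0.03). The part of these lists in the differences was not tested.

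C1r differed by -0.28 ± 0.16 and Serping1 by -0.48 ± 0.29 in young hippocampus (SE), and both overlapped between groups. The C1q genes differed by -0.01 ± 0.15 for C1qa, 0.05 ± 0.17 for C1qb and -0.13 ± 0.22 for C1qc (SE). In aged hippocampus the iTBS differences were 0.20 ± 0.14 for C1s and 0.28 ± 0.21 for Serping1 (SE). The aged minus young difference in the iTBS effect was 0.75 ± 0.24 for C1s and 0.76 ± 0.36 for Serping1 (SE), with unadjusted p-values of 0.00604 and 0.0457, an adjusted p of 0.801 for both in limma, and 0% of probes called. In cortex C1qb measured 7.09, 7.17, 7.55 and 7.35 in AU_Sham and 6.64, 6.48, 6.41, 7.16 and 7.14 in AU_iTBS, which overlapped, a difference of -0.53 ± 0.23 (SE, adjusted p = 0.578). Within the first scan batch it was -0.21 and within the later batches -0.59. The effect of iTBS on Serping1 in aged animals differed between hippocampus and cortex by 0.79 ± 0.35 (SE, 95% interval 0.05 to 1.52), with an adjusted p of 1.00 in limma and 0% of probes called. Within the first scan batch this difference was 0.79 and within the later batches 0.08.

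By group means, Y_iTBS was the lowest group in hippocampus for C1qa, C1r, C1s, C2, Cfb, Serping1 and Cd59, and AI_iTBS was the highest for C1qb, C1r, C1s, C2, Cfb, Serping1 and Cd59. Neighboring groups in these orders overlapped throughout, except AU_Sham and Y_iTBS for C2 and Y_Sham and Y_iTBS for Cd59. In cortex the exceptions were AU_Sham and Y_Sham for C1s (A_44_P332422) and AI_iTBS and Y_Sham for Cfb. There Y_iTBS was the lowest group for C1qc, C1r, C1s, C2, Cfb, Serping1 and Cd59, and AI_iTBS the highest for C1qa, C1qb and Cd59. In hippocampus the means of Y_iTBS and Y_Sham were nearly equal for C1qa (6.03 and 6.04) and Cfb (1.34 and 1.34). Gaps between neighbors were found after the groups were sorted by mean. Y_Sham and Y_iTBS in hippocampus did not overlap for 3.13% of all probes. For the other pairs without overlap the share over all probes was not computed, so those gaps are given as a description only.

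The regions were compared within the 12 sham animals, where 35.9% of 33770 probes were called. C1qa was called higher in hippocampus and Cd59 higher in cortex. C1qa ran from 5.88 to 6.63 (median 6.32) in hippocampus and from 5.27 to 6.58 (median 5.96) in cortex, and was higher in hippocampus in 11 of 12 sham animals and in 21 of all 24. The difference was 0.39 ± 0.08 (SE), or 1.31-fold, with an adjusted p of 0.000905. It was 0.43 (adjusted p = 0.00385) within the first scan batch, with 8 sham animals, and 0.23 (adjusted p = 0.358) within the later batches, with 4. Cd59 ran from 6.34 to 6.63 (median 6.41) in hippocampus and from 6.36 to 6.77 (median 6.64) in cortex, and was higher in hippocampus in 1 of 12 sham animals. Its difference was -0.16 ± 0.06 (SE), or 1.12-fold, with an adjusted p of 0.0312, and it was not called with 75th percentile scaling (-0.14, adjusted p = 0.0731) or quantile normalization (-0.11, adjusted p = 0.0682). Nor was it called within the first scan batch (-0.16, adjusted p = 0.101) or the later batches (-0.14, adjusted p = 0.580), or without any 1 of Y_Sham 1, Y_Sham 2, Y_Sham 3, AU_Sham 3, AU_Sham 4, AI_Sham 3 or AI_Sham 4 (adjusted p from 0.0533 to 0.0754). C2 (0.29 ± 0.12) and Serping1 (0.39 ± 0.20) were not called (SE, adjusted p = 0.0735 and 0.143). Serping1 differed by 0.05 (adjusted p = 0.876) within the first scan batch and by 1.26 (adjusted p = 0.0106) within the later batches, where it was the member called. In the 4 sham animals of the later batches, all hippocampus arrays were from scan batch 3 and all cortex arrays from batch 2. Region and scan batch therefore cannot be told apart there for any gene. First arrays of the regions of each sham animal also lay on different slides. Of 8 choroid plexus markers 5 were called higher in hippocampus, with a median of 1.59, and of 13 microglial markers 1 was, with a median of 0.11. Their part in the C1qa difference was not tested.

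**Figure D4:**
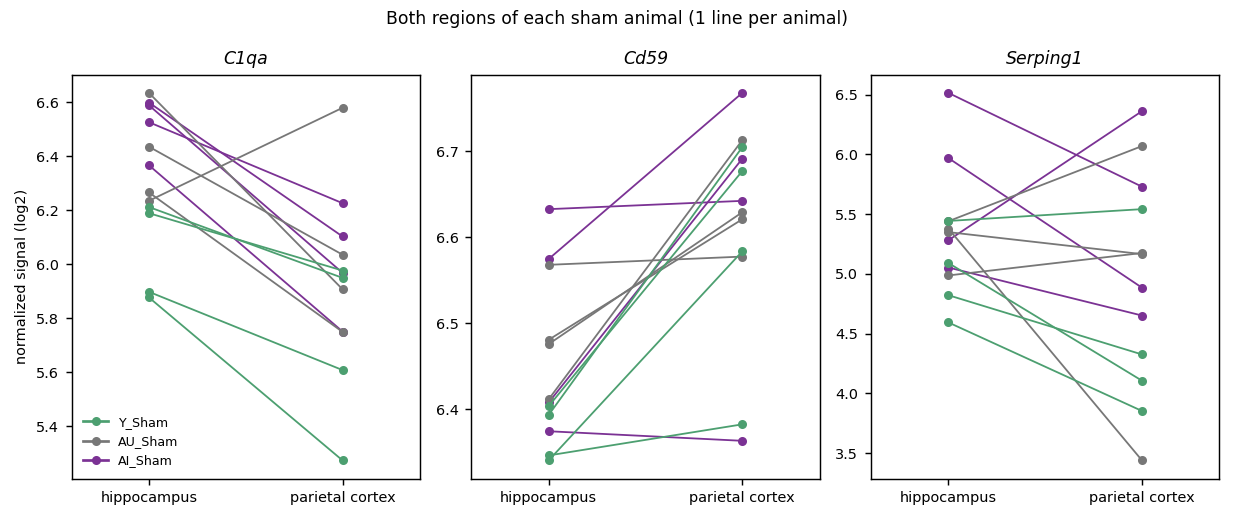
Normalized log2 signal (vertical axes) of C1qa, Cd59 and Serping1 in the hippocampus and parietal cortex of the 12 sham animals, with 1 line per animal colored by group. C1qa was higher in hippocampus in 11 of 12 animals and Cd59 in 1 of 12.

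The 2 regions of an animal were also compared across all 24 animals, as a family of 9 correlations with permutation tests (two-sided). Cfb correlated at r = 0.554 (rho = 0.510, permutation p = 0.00478 and 0.0111, adjusted p = 0.0215 and 0.0333). C1qa correlated at r = 0.588 (rho = 0.517, permutation p = 0.00264 and 0.0101, adjusted p = 0.0215 and 0.0333). Serping1 followed at r = 0.488 (rho = 0.486, permutation p = 0.0159 and 0.0170, adjusted p = 0.0424 and 0.0383) and C1qb at r = 0.475 (rho = 0.516, permutation p = 0.0188 and 0.0107, adjusted p = 0.0424 and 0.0333). Without the 2 animals farthest from the hippocampal median, r was 0.507 for Cfb, 0.450 for C1qa, 0.459 for Serping1 and 0.388 for C1qb. Within the first scan batch and the later batches r was 0.469 and 0.725 for Cfb, 0.661 and 0.508 for C1qa, 0.700 and 0.690 for Serping1, and 0.617 and -0.316 for C1qb, so the C1qb relation did not hold in the later batches. The other 5 genes had r from 0.329 to 0.448, with adjusted p-values from 0.0509 to 0.116. The permutations did not hold the groups fixed, so group differences shared by both regions enter these values. After removal of the 6 group means, r was 0.344 for Cfb, 0.398 for C1qa, 0.306 for Serping1 and 0.548 for C1qb, and ran from 0.0524 to 0.548 over the 9 genes.

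Over the 24 animals the members fell into sets by their pairwise correlation, given as a description. In hippocampus C1r and C1s correlated at r = 0.93, C2 with C1r at 0.84 and with C1s at 0.85, and Serping1 with C2 at 0.89 and with C1r at 0.80. C1qa correlated with C1qb at 0.78 and with C1qc at 0.68, whereas C1qc and C1r stood at 0.02. In cortex the C1r and C1s correlation was 0.79, that of C1s and Cfb 0.83, that of C1r and Serping1 0.79, and that of C1qa and C1qc 0.69. The 2 C1s probes correlated at 0.93 in hippocampus and 0.90 in cortex. The arrays, the scan batches and the group differences are shared by all these points.

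**Figure D5:**
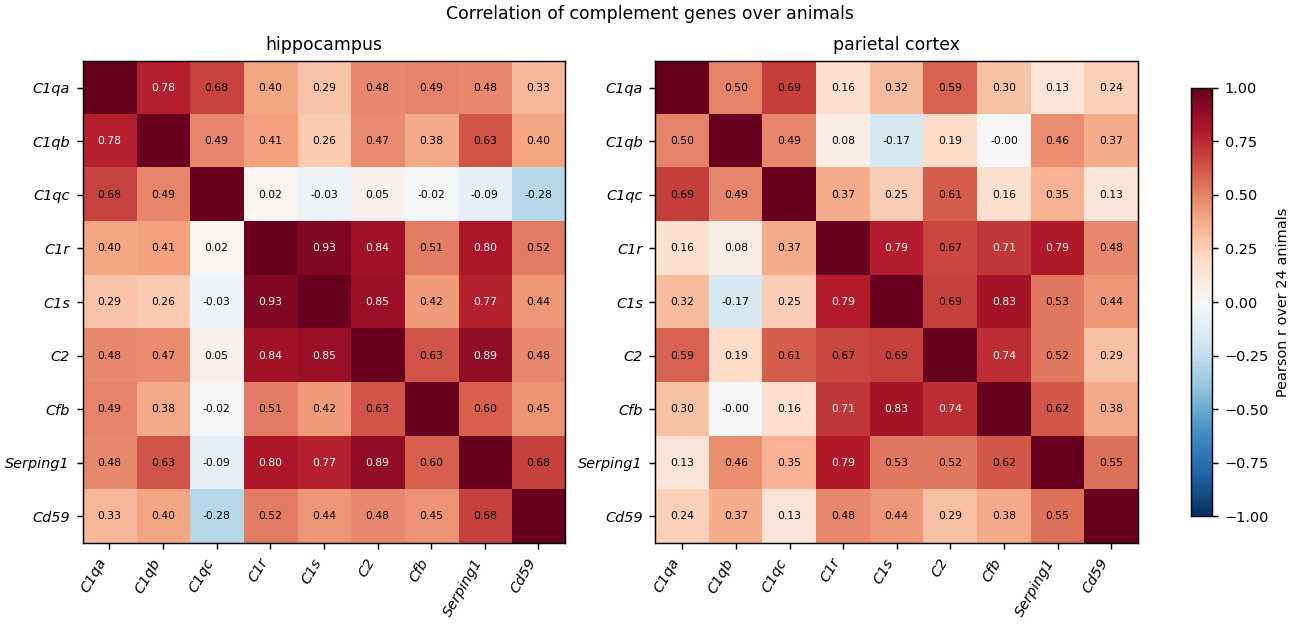
Pearson r over 24 animals between each pair of genes (both axes), in hippocampus (left) and parietal cortex (right), colored from -1 (blue) to 1 (red). C1r, C1s, C2 and Serping1 form a dark block in hippocampus, with C1r and C1s at 0.93, and C1qc is near 0 with them.

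In cortex Serping1 correlated with the microglial list at r = 0.06, with the mural, fibroblast and meningeal list at 0.69 and with the perivascular macrophage list at 0.71. C1r in cortex correlated with the last 2 lists at 0.77 and 0.82. Among 13670 other named genes, those most like a member in both regions were found from the lower of the 2 correlations over 24 animals. For the mean of the C1q genes they were Vasp (0.80 in hippocampus and 0.72 in cortex), Arsb (0.69 and 0.77) and Cd68 (0.72 and 0.69). That mean correlated with the microglial list at 0.34 in hippocampus and 0.42 in cortex, and with the astrocyte list at 0.64 and 0.62. Serping1 was most like S100a4 (0.87 and 0.88), Ecrg4 (0.87 and 0.87) and S100a6 (0.85 and 0.91). C1r was most like Ecrg4 (0.86 and 0.85), followed by Ctsc and Spp1, and C1s most like Spp1 (0.78 and 0.80), Vim (0.77 and 0.77) and Sh2d1a (0.77 and 0.76). C2 was most like Hspb1 (0.82 and 0.84), followed by Vim and Ifitm3. Cfb was most like RT1-A2 (0.81 and 0.78), a class I histocompatibility gene, followed by Slfn4 and RT1-A3, and Cd59 most like Acss1 (0.78 and 0.75), followed by Ifi44 and Hsdl2.

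Of 53 other complement genes listed, 33 were measured. In aged against young hippocampus 22 of 33 were higher, with a median of 0.11, and 6 were called, all higher, against 0.511% of all probes. These were the cascade components C4b (1.15 ± 0.13), C4a (1.01 ± 0.14) and C3 (1.33 ± 0.20), and the receptor genes Itgb2 (0.57 ± 0.10), C5ar2 (0.35 ± 0.08) and Itgam (0.49 ± 0.11), with SE in each case. Itgam and Itgb2 encode the chains of complement receptor 3, which microglia use to take up tagged material. In cortex C4a (1.45 ± 0.17), C4b (1.21 ± 0.14) and C3 (1.35 ± 0.17) were called, and the same 3 were called in sham cortex (1.67, 1.30 and 1.37). Of all probes 0.402% were called for age in cortex and 0.104% for age in sham cortex. C4a and C4b are near-identical copies, so their probes may share signal. No other complement gene was called in an iTBS comparison. Between regions in sham animals 17 of 33 were called, against 35.9% of all probes, 11 higher in hippocampus and 6 higher in cortex. Among them were C4bpa (-2.31), Masp1 (0.71), Cfi (1.24), Cr1l (0.32), Sez6 (0.43) and Cd55 (0.66).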

How the data were processed

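Total RNA was labeled with 1 dye and hybridized to Agilent rat gene expression arrays. The authors deposited scanner files with processed signal intensity per spot, background-subtracted but not normalized between arrays, and a table of z-scores, a score per feature and array. Both kinds of file cover 56 arrays of 62976 features. Spots marked as non-uniform or outlying among copies were dropped, 267 to 1448 on each array, and the remaining copies averaged. The log2 processed signal was turned to a z-score over 45598 non-control probes, following the study, then scaled by the average array SD (4.08), which assumes equal mean and spread on every array. Repeats were averaged into their animal. Probes well above background in at least 3 of 24 animals were tested with limma 3.58.1 in R 4.3.3, with 6 group means per region, regions compared within animals, all tests two-sided and Benjamini-Hochberg adjustment over all probes tested. Accessions were named through RefSeq of GRCr8 (46.3% of probes, 93.9% of those with a curated transcript), used for names, order on the chromosome and promoters. The labels do not say that samples shared a litter, so replicate numbers do not pair animals: same-numbered animals correlated at -0.149 to 0.269.

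The members, the gene lists and the tests were chosen with earlier results of these data known. Every probe of a member is named, of the other complement genes those called, at most 6 per comparison by adjusted p, and for likeness the 3 leading genes. Normalization, background correction, the filter on dim probes, scan batch, slide, repeats, the deposited scores, the study's selection rule, a replicate block and each animal left out were tried as alternatives, and marker lists as covariates were added after the data were seen. The fits were tested on simulated data. Intervals cover the spread between animals only.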

Additional observations from a re-analysis of the deposited data

Results flagged for a closer look

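In 9 of the 100 sets of animals tested (10 probes in groups of 4 or 5), 1 animal lay far from the others of its group, where chance marks about 1 in 20. Groups of 3 were not tested. The sets share animals and correlated probes, so the 9 are not independent and were not tested against that rate. In hippocampus these were C1qb in AU_Sham 1 (7.00, the nearest other animal 7.50), C1r in Y_Sham 4 (2.60, nearest 2.99) and C1s with A_44_P332422 in the same Y_Sham 4 (1.42, nearest 1.94). In cortex they were C1qb in Y_Sham 2 (6.62, nearest 7.10), C1r in AI_Sham 2 (2.84, nearest 3.44), C1s in AU_iTBS 4 with both probes (1.25 with A_44_P332422 and 1.26 with A_44_P1085844, nearest 1.80 and 1.81), and C1s with A_44_P1085844 in Y_Sham 1 (1.28, nearest 1.53). The only animal far above its group was AU_iTBS 5 for Serping1 in cortex (5.61, nearest 4.20), whose mural, fibroblast and meningeal list mean was 3.09, against 0.75 to 2.47 in the other 4.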

How the results depend on the processing

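None of the 27 member differences with an unadjusted limma p under 0.05 reversed its direction under any alternative run. Of all 200 member differences 102 did under at least 1 alternative, in 341 of 7360 recomputed values. Among them was Serping1 in cortex, within the later scan batches, for age in sham animals (0.73 as computed over all scan batches and -0.05) and for iTBS in aged animals (-0.51 and 0.37). Filters on dim probes, and leaving out an animal of a group not compared, cannot change a difference, yet are counted among the 7360. The 27 were also picked for lying far from 0 relative to their SE, which makes a reversal less likely. Of the 9 genes, 0 to 3 were higher after iTBS in young hippocampus over the alternatives, against 1 as reported. For age in hippocampus, 1 member was called as reported. The count was 2 with scan batch as a fixed block (C1qb, 0.41, adjusted p = 0.0375, and Serping1) and under the study's selection rule, 0 within the first scan batch and 0 within the later batches, and 0 to 2 when each animal was left out. Over all probes the calls were 274 of 32503 with scan batch as a fixed block and 194 of 45230 under the study's rule. They were 13 within the first scan batch and 0 within the later batches, of 32503 each. With marker lists as covariates, added after the data were seen, the member count was 0 for microglia and 3 for the mural, fibroblast and meningeal list (Serping1, C1r, 0.45, adjusted p = 0.0312, and C2, 0.58, adjusted p = 0.00426). Of all 32503 probes, 25 were called with the microglial list and 202 with the mural list. Over 16 alternatives the Serping1 difference ran from 0.49 to 1.17. With the replicate number as a block, 1 member was called (Serping1, 0.84, adjusted p = 0.0374), and without the pairing of regions in an animal ("no replicate block") 2 members differed between regions. For age in cortex, 0 members were called as reported, 1 (Cfb) under the study's rule, 1 (Cfb, 0.60, adjusted p = 0.00506) with the mural list, and 0 to 1 when each animal was left out (Cfb, adjusted p = 0.0316 without AU_iTBS 4). For region, 2 members were called as reported (C1qa and Cd59), 1 with 75th percentile scaling and 1 within the first scan batch (C1qa both times), 1 within the later batches (Serping1), 3 with scan batch as a fixed block (C1qa, Cd59 and Serping1), and 1 to 4 when each animal was left out, with 4 (C1qa, C1s, C2 and Serping1) without AI_Sham 4. With quantile normalization C1qa and C1qb were called. Cd59 lost its call without any 1 of 7 sham animals. The study's rule, as rebuilt here, selected 1 member each for iTBS in young hippocampus (C1s) and for age in sham hippocampus (Serping1) and sham cortex (Cfb). The study itself lists both C1s and C2 as lower after iTBS in young hippocampus, so the rebuilt rule does not return its full list.

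Over all probes, calls for age ran from 0 to 274 in hippocampus and 22 to 307 in cortex over the alternatives, and from 92 to 258 and 60 to 293 when each animal was left out. Calls for iTBS in young animals reached 59 in hippocampus and 40 in cortex, in AU animals 12 and 110, in AI animals 26 and 69, and in all aged animals 14 and 20. For age in sham animals they ran from 0 to 86 in hippocampus and 0 to 176 in cortex, and for region from 4818 to 13416. Where the study's rule was run, its count is included, although it selects by other thresholds than limma at adjusted p under 0.05. Fits of the first or the later scan batches alone, with fewer animals, are included too. The ranges therefore mix thresholds and numbers of animals, and the cause of the shifts was not tested further. The slide as a block and the study's rule were not run for region, and the study's rule not for aged minus young iTBS. Background correction used the median spot signal, since the mean was not among the columns analysed.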

Other observations

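The hippocampal array with conflicting labels, in no group, gave 6.27 for C1qa, 7.33 for C1qb, 3.53 for C1qc, 2.99 for C1r, 1.69 and 1.75 for the C1s probes A_44_P332422 and A_44_P1085844, 1.78 for C2, 1.48 for Cfb, 5.32 for Serping1 and 6.48 for Cd59. Each value lay within the range of the 24 animals. The cortex repeat of AI_iTBS 2 that was left out gave 5.65 for C1qa and 6.95 for C1qb, against 6.25 and 7.73 on the first array of that animal and 5.75 and 7.06 in AI_Sham 2.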
